A study of Mus musculus with 12 samples.

Results

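N-acetylcysteine (NAC) was set against saline in cardiomyocytes of newborn mice, averaged over 2 kinds of surgery. All 12 libraries of the study entered the comparison: 6 from pups given NAC and 6 from pups given saline. The NAC libraries were 3 after sham surgery and 3 after myocardial infarction (MI), and the saline libraries were likewise 3 after sham and 3 after MI. The averaged change is the mean of the NAC change after sham and the NAC change after MI, so that each surgery has equal weight. All pups were labelled wild type, and no strain or sex is named in the sources used here. Injections ran from postnatal day 0 to day 1 and surgery was on day 2. MI was made by tying off the left anterior descending coronary artery, and the cells were collected on day 3. Ventricles were pooled and cardiomyocytes were isolated with a neonatal dissociation kit, so that a library is a pool of animals; the sample labels speak of left ventricle and the series text of whole ventricles. Nothing states that libraries of a group came from separate litters or isolations, and the p-values then speak of the spread among these libraries, which may be technical.

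NAC is a thiol compound that enters cells, gives up cysteine for the synthesis of glutathione and lowers the level of reactive oxygen species. Cardiomyocytes of newborn mice still divide and can replace lost muscle for a short time after birth, and the move to oxygen-rich air and mitochondrial respiration accompanies the end of that window. Tissue-resident and circulating cells, red cells among them, accompany cardiomyocytes through isolation in varying amounts.

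Each library held 14353842 to 25118341 reads assigned to genes, and 19031 to 23753 genes had reads. Cardiomyocyte genes were abundant in every library: per exon length, Actc1 (cardiac actin) ranked between 6 and 11 among all genes and Myh6 (the fast ventricular myosin heavy chain) between 13 and 65. Several libraries stood apart. NAC sham 2 had a summed level of 25358 over 20 macrophage and monocyte genes, against 1207 to 2134 in the remaining 5 sham libraries; NAC MI 2 had 1399.6, against 11352 to 16498 in the remaining 5 MI libraries. The pools also differed in sex-linked reads: NAC MI 1 and NAC MI 2 had no reads of the 4 Y-linked genes Kdm5d, Uty, Ddx3y and Eif2s3y, whereas NAC MI 3, saline MI 1 and saline MI 3 had Y-linked reads and Xist values of 0, 19.1 and 0, Xist being the RNA of the inactive X chromosome. Titles carry a prefix whose meaning is not given. Prefix R207 holds NAC sham 2 with saline sham 1 and 2, R230 holds NAC MI 3 with saline MI 1 and 2, and R235 holds NAC MI 1 and 2 with saline MI 3. Saline sham 3 alone has the prefix R219, and NAC sham 1 and 3 have none. A difference within R207, R230 or R235 therefore compares both treatments under 1 prefix, although with 1 library on one side. Within R235 treatment and the sex of the pups cannot be told apart. Saline MI 2 had both Y-linked reads and an Xist value of 1607. No saline MI library lacked Y-linked reads, so the NAC change after MI and the averaged change carry this imbalance as well.

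The comparison asked which transcripts differed with NAC on the average of sham and MI, which does not require the 2 changes to agree. With limma on log2(normalized value + 1), 0 of 14996 genes passed a Benjamini-Hochberg adjusted p of 0.05 (0% called), and the smallest adjusted p was 0.126. At an unadjusted p under 0.05, 1142 genes were higher in NAC (7.62%) and 1185 were lower (7.9%). All 6 NAC libraries lay above all 6 saline libraries for 67 genes (0.447%) and below them for 59 genes (0.393%). The tools disagreed on the number called. edgeR's quasi-likelihood test on recovered reads called 0 genes, with 2293 at an unadjusted p under 0.05, while DESeq2 on the same reads called 437 (256 higher and 181 lower in NAC, 13503 tested) and limma with library quality weights called 2021 (1047 higher and 974 lower). Leaving out NAC sham 2, whose quality weight was the lowest at 0.2501, limma called 250 genes, 170 higher and 80 lower. With the title prefix as a block, the sham change rests on NAC sham 2 alone against saline sham 1 and 2, and that fit is described further below. No gene passed for the difference between the NAC change after MI and the NAC change after sham (0% called by limma); 305 genes (2.03%) had an unadjusted p under 0.05 for it, the smallest adjusted p was 1.0, and DESeq2 called 1.

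The NAC changes after the 2 surgeries share no library. Over all 14996 genes they had the same sign for 67.4%, with Pearson r = 0.234 and Spearman rho = 0.406, a description across genes, which are not independent. Of the 884 genes with an unadjusted p under 0.05 after sham, 756 (85.5%) had the same sign after MI, and of the 1382 with such a p after MI, 1200 (86.8%) had the same sign after sham. In all, 276 genes had such a p after both surgeries, and 272 of these had the same sign. Both p-values of a gene use 1 estimate of its spread from all 12 libraries, so the 2 tests are not independent. Pearson r ran from 0.123 without NAC sham 3 to 0.346 without NAC sham 2. A lobe of genes with positive changes after sham and negative changes after MI is visible at the lower right of the plot; the 20 macrophage and monocyte genes measured had a median log2 change of 1.7 after sham and -1.31 after MI, which averages to 0.10.

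**Figure D1:**
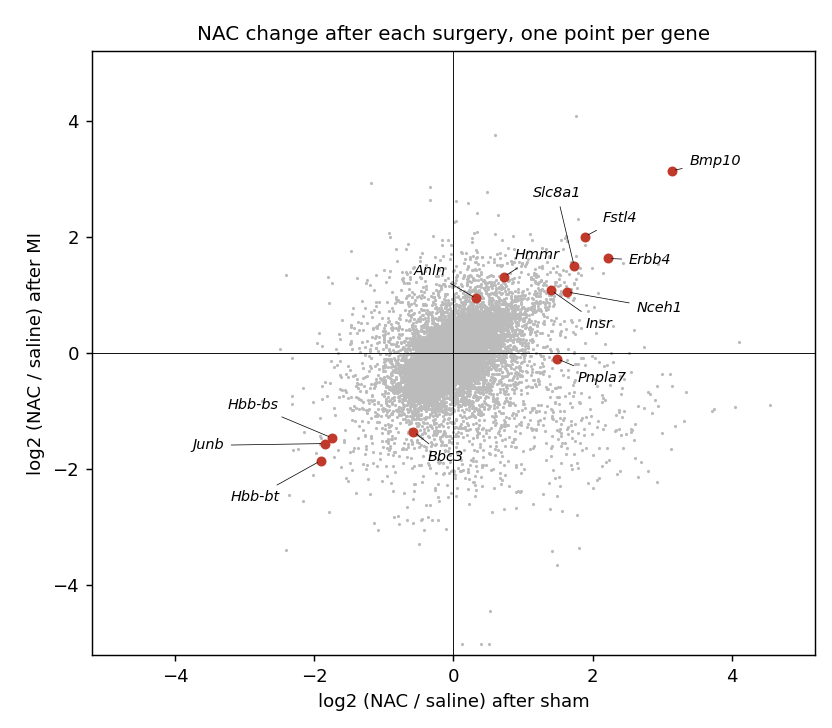
Each grey point is one of 14996 genes, with its log2 NAC-to-saline change after sham on the x axis and after MI on the y axis, and red points are named genes. Hbb-bt, Hbb-bs and Junb lie at the lower left and Bmp10, Erbb4 and Fstl4 at the upper right, while Pnpla7 lies near 0 on the y axis; 3 genes beyond 5 log2 units are drawn at the edge.

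Slc8a1, Chrm2, Cacna2d2 and Dsc2 were among the 15 genes with the smallest p on the higher side, none of which passed. Slc8a1, the sodium-calcium exchanger that removes calcium from cardiomyocytes after each beat, had normalized values of 5181 to 15260.3 (median 9425) in the NAC libraries, against 1941 to 4098 (median 2809) in the saline libraries. The 2 sets of libraries did not overlap, and the lowest NAC value was that of NAC MI 3. Its log2 change was 1.62 ± 0.28 (SE; limma adjusted p = 0.168), with 0.79 within R207, 1.0 within R230 and 1.41 within R235. Chrm2, the muscarinic receptor through which the vagus nerve slows the heart, had 297 to 919.6 (median 508) in the NAC libraries, against 146 to 255 (median 179) in the saline libraries, again without overlap. The log2 change of Chrm2 was 1.45 ± 0.28, with 0.72 within R207, 0.98 within R230 and 1.34 within R235. Cacna2d2, an auxiliary subunit of voltage-gated calcium channels, had 56.5 to 141 (median 108) in the NAC libraries, against 13.9 to 47.5 (median 43.3) in the saline libraries. It did not overlap either, and its log2 change was 1.55 ± 0.31, with 2.16 within R207, 0.59 within R230 and 1.14 within R235. Dsc2, a desmosomal cadherin that joins cardiomyocytes to each other, had 265 to 753 (median 476) in the NAC libraries, against 105 to 200.8 (median 138) in the saline libraries, and its log2 change was 1.65 ± 0.27.

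Over the list of calcium handling genes and ion channels, 28 of 30 genes measured had a positive log2 change. Of the 30, 15 had an unadjusted p under 0.05 on the higher side and 0 on the lower side. Over all genes tested, 7132 of 14996 were positive, and 7.62% and 7.9% had such a p on the 2 sides. DESeq2 called 256 higher and 181 lower of 13503 genes. These counts are the background for every list below. No gene of the calcium list passed with limma, DESeq2 called 11 of its genes higher, and its median log2 change was 0.80, against -0.021 over all genes. Besides Slc8a1, the smallest p-values were those of Casq2, the calcium-binding protein of the sarcoplasmic reticulum, and Cacna2d1, another calcium channel subunit. Casq2 had 10373, 3069.8 and 9798 in the NAC sham libraries and 1866, 2401 and 3355 in the saline sham libraries, and 6181, 13532 and 4558 in the NAC MI libraries and 3122, 2688 and 3515 in the saline MI libraries. NAC sham 2 lay below saline sham 3 for Casq2, so that the treatments overlapped, and its log2 change was 1.34 ± 0.32. Cacna2d1 had a log2 change of 1.2 ± 0.27, with 0.45 within R207, 0.93 within R230 and 0.78 within R235. Ryr2, the calcium release channel of the sarcoplasmic reticulum, had a log2 change of 1.26 ± 0.32, with -0.24 within R207, 0.75 within R230 and 1.34 within R235. By prefix the list's median was -0.092 within R207, 0.29 within R230 and 0.79 within R235, so that it was negative under R207. The averaged median was 1.16 without NAC sham 2 and 0.50 without NAC MI 1 and NAC MI 2. The summed level over the list was 60723 to 161430.0 in the NAC libraries and 54773 to 62786 in the saline libraries; NAC sham 2, the only NAC library under R207, was the lowest of the NAC libraries.

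The other genes among the 15 on the higher side had varied roles. Nceh1, a hydrolase of neutral lipids, had 679.6 to 1276 (median 913) in the NAC libraries, against 224 to 558 (median 399) in the saline libraries, without overlap. Its log2 change was 1.34 ± 0.21 (SE; limma adjusted p = 0.126), with 1.16 within R207, 0.77 within R230 and 0.95 within R235. Insr, the insulin receptor, had 1172 to 2375 (median 1765) in the NAC libraries, against 471 to 1022 (median 725) in the saline libraries, also without overlap, and a log2 change of 1.24 ± 0.23, with 0.50 within R207, 0.99 within R230 and 0.76 within R235. Slc16a12 and Slc16a7, members of the monocarboxylate transporter family, had log2 changes of 1.42 ± 0.26 and 1.11 ± 0.21. Slc16a7, which carries lactate and pyruvate, had 88.2 to 205 (median 168) in the NAC libraries, against 59.4 to 85.8 (median 73.3) in the saline libraries. Retreg1, a receptor for autophagy of the endoplasmic reticulum, had a log2 change of 1.24 ± 0.22 and Fstl4, a follistatin-like protein, of 1.95 ± 0.36. Fstl4 had 127, 80.6 and 157 in the NAC sham libraries and 45.7, 44.7 and 14.3 in the saline sham libraries, and 129, 259 and 80.3 in the NAC MI libraries and 24.7, 33.4 and 46.8 in the saline MI libraries. The others were Rnf128, a ubiquitin ligase, at 1.58, Tmem161b, a membrane protein, at 0.92, Plscr2, of the phospholipid scramblase family, at 0.89, and Pcdhga2, a protocadherin, at 1.12. Of the 15 genes, all but Tmem161b had all 6 NAC libraries above all 6 saline libraries, against 67 of all genes (0.447%). The 15 were picked for a small p in these same libraries, so their separation is not further support. Such a separation by itself makes the differences within R207, R230 and R235 positive. Tmem161b was positive within each of these prefixes as well. Over all genes, 4624 (30.8%) had the sign of their averaged change within all 3 prefixes. Limma adjusted p-values ran from 0.126 to 0.168. DESeq2 and limma with quality weights, run on the same libraries that picked these genes, called all 15.

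**Figure D2:**
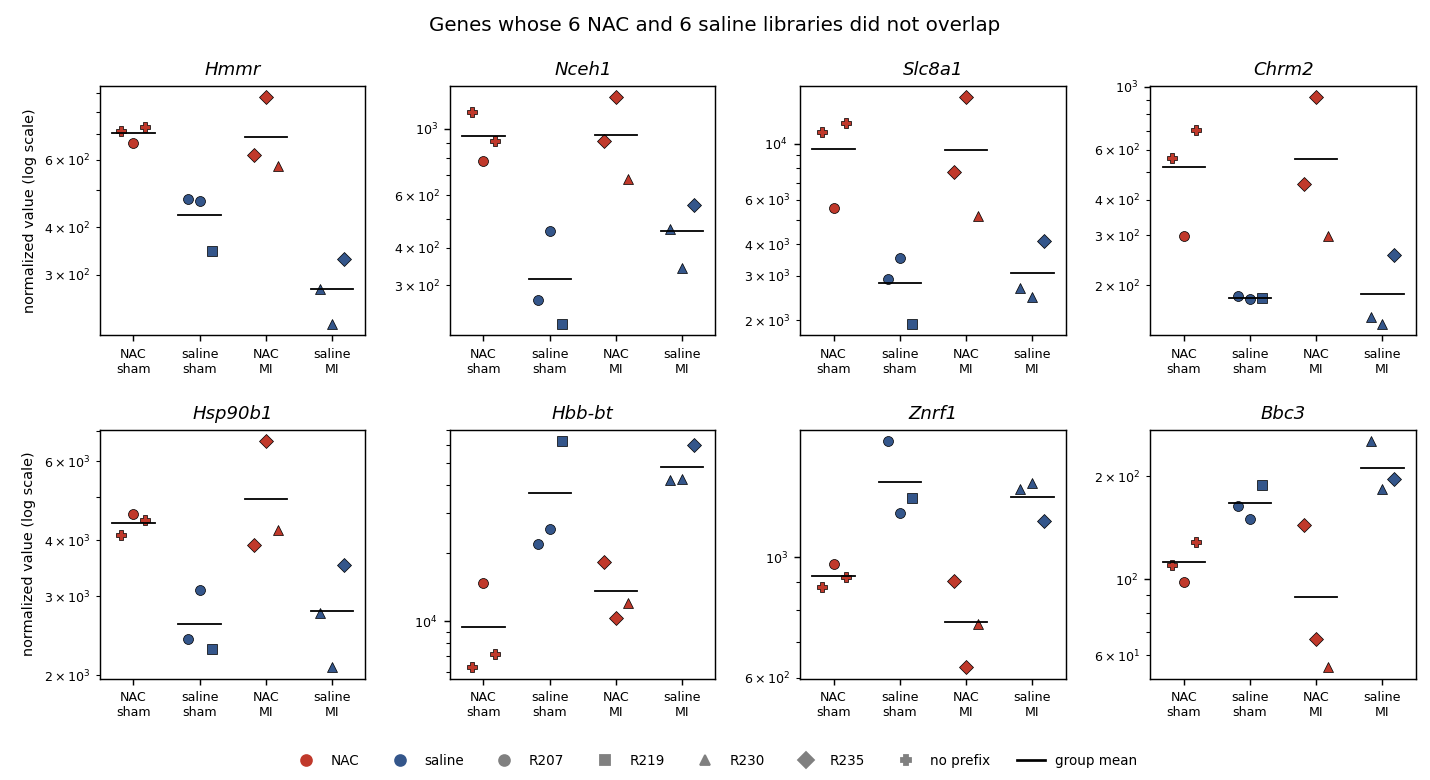
Normalized values on a log axis in the 12 libraries for 8 genes whose NAC libraries (red) and saline libraries (blue) did not overlap, by treatment and surgery; the marker shape gives the title prefix and the bar the group mean. The 6 NAC libraries of Hmmr lie between 579 and 875 and the 6 saline libraries between 224 and 474, whereas for Hbb-bt the NAC libraries lie between 6272 and 18250 and the saline libraries between 21942 and 62721.

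Hmmr, the hyaluronan-mediated motility receptor that binds spindle microtubules in dividing cells, had the smallest p of all on the higher side. It had 716, 665 and 730.5 in the NAC sham libraries and 474, 467 and 346 in the saline sham libraries, and 617, 875 and 579 in the NAC MI libraries and 275, 224 and 329 in the saline MI libraries. The 12 libraries separated by treatment within each surgery and across both. Its log2 change was 1.02 ± 0.15 (SE; limma adjusted p = 0.126), 0.73 after sham and 1.31 after MI, and 0.50 within R207, 1.22 within R230 and 1.15 within R235. Over the list of G2-phase and mitosis genes, 31 of 34 had a positive log2 change, against 7132 of 14996 over all genes. At an unadjusted p under 0.05, 15 were on the higher side and 0 on the lower side (7.62% and 7.9% over all genes). None of the list passed with limma and DESeq2 called 5. The median log2 change over the list was 0.30, with 0.037 after sham and 0.60 after MI, and 0.13 within R207, 0.87 within R230 and 0.45 within R235. Anln, the anillin that organises the contractile ring, had 1517, 1605 and 1370.1 in the NAC sham libraries and 1298, 1498 and 869 in the saline sham libraries, which overlapped. After MI, Anln had 1402, 1469 and 1359 in the NAC libraries and 695, 708 and 803 in the saline libraries, which did not overlap, and its averaged log2 change was 0.63 ± 0.14. Bub1, a kinase of the spindle checkpoint, had a log2 change of 0.77 ± 0.21, with 0.40 after sham and 1.15 after MI. Mki67, the Ki-67 protein of cycling cells, stood at 0.80 ± 0.29, Ccnb1, the cyclin that starts mitosis, at 0.35 ± 0.15 and Cdk1, its kinase partner, at 0.019 ± 0.13. For these 3 genes the NAC change was 0.61 after sham and 1.0 after MI (Mki67), -0.11 after sham and 0.80 after MI (Ccnb1) and -0.27 after sham and 0.31 after MI (Cdk1); the difference between surgeries had adjusted p-values of 1.0 in limma, and unadjusted p-values of 0.01 for Ccnb1 and 0.038 for Cdk1. Leaving out 1 library, the mitosis median ran from 0.25 (without saline sham 3) to 0.36 (without NAC MI 1). DNA replication and S-phase genes had a median log2 change of 0.054, with 2 of 34 at an unadjusted p under 0.05 on the higher side and 2 on the lower side. Cdkn1a, which codes for the cell cycle inhibitor p21, had 445 to 1407 (median 826) in the NAC libraries, against 801 to 1605 (median 1020.4) in the saline libraries, with a log2 change of -0.45 ± 0.27 and 0.27 within R207, -0.42 within R230 and 0.12 within R235.

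Promoters are shown for Hmmr, which had the smallest p on the higher side, and Hbb-bt, one of the 15 smallest on the lower side, each with other members of its list described in the text (Anln, Hbb-bs and Hba-a1, none of them among the 15). They run from 250 bases before to 50 after the start of the gene and come from RefSeq on GRCm38.p6, 5′ to 3′. Capitals mark CACCC (a motif of Krüppel-like factors), AGATAA (a form of the GATA motif), TATAAA (the TATA box), CCAAT (the CCAAT box) and TTTGAA (a form of the cell cycle homology element of mitotic genes), each searched on both strands, and no base falls in 2 of these motifs. Of 27025 genes with such a promoter, 56.8% held CACCC, 11.3% AGATAA, 14.1% TATAAA, 37.8% CCAAT and 18.1% TTTGAA.
Hmmr (chr11:40733388-40733687, minus strand): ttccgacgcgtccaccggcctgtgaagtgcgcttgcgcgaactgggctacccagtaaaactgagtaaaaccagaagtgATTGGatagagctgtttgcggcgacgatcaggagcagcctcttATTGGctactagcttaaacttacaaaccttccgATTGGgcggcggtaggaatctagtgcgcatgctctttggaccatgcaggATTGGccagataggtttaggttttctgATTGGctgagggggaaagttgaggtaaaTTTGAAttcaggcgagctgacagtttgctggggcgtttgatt
Anln (chr9:22389157-22389456, minus strand): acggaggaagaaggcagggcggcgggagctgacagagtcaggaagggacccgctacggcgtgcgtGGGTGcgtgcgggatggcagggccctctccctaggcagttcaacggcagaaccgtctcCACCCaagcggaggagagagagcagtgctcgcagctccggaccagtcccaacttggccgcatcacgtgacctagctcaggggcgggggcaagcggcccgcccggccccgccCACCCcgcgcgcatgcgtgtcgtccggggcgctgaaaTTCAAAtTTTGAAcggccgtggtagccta
Hbb-bt (chr7:103813874-103814173, minus strand): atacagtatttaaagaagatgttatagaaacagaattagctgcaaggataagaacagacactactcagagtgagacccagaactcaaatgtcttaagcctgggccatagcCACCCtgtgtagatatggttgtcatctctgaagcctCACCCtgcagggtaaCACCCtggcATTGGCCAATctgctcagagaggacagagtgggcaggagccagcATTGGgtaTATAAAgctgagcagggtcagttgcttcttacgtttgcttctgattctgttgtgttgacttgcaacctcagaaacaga
Hbb-bs (chr7:103827879-103828178, minus strand): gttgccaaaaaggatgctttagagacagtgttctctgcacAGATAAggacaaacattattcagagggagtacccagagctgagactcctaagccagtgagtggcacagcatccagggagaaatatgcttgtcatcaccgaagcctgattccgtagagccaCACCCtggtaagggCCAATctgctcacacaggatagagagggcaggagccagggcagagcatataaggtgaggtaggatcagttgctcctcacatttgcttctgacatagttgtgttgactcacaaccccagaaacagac
Hba-a1 (chr11:32283422-32283721, plus strand): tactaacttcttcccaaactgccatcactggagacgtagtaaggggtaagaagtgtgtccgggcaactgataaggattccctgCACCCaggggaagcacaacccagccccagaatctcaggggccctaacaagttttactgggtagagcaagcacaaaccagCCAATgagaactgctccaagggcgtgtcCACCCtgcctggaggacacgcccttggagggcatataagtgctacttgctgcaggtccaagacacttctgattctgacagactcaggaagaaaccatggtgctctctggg
The Hmmr promoter held 5 CCAAT matches and 1 TTTGAA match, and that of Anln held 2 TTTGAA and 3 CACCC matches and no CCAAT. That of Bub1, searched as well but not shown, held 2 CCAAT matches and no TTTGAA. Of 27 mitosis list genes with a promoter in the table, 21 (77.8%) held CCAAT and 21 (77.8%) held TTTGAA. The 3 globin promoters each held CACCC and CCAAT, with 3 matches of both in Hbb-bt. Of 26 red cell genes with a promoter, 20 (76.9%) held CACCC and 9 (34.6%) held AGATAA. These are letter matches only.

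Red cell transcripts formed a group on the lower side. Hbb-bt and Hbb-bs, the adult beta globins, and Hba-a1, an adult alpha globin, carry oxygen in red cells; in pooled cells, fewer red cells and less RNA per red cell cannot be told apart. Hbb-bt had 6272, 14816 and 7167 in the NAC sham libraries and 21942, 25536 and 62721 in the saline sham libraries. After MI, Hbb-bt had 18249.8, 10393 and 12102 in the NAC libraries and 42145, 42756 and 60014 in the saline libraries. All 6 NAC libraries lay below all 6 saline libraries, and the log2 change was -1.88 ± 0.30 (SE; limma adjusted p = 0.126), or 0.272 times the saline level, with -0.68 within R207, -1.81 within R230 and -2.12 within R235. Hbb-bs had 85104 to 231090.0 (median 153661) in the NAC libraries, against 241228 to 752508 (median 421324) in the saline libraries, without overlap, and a log2 change of -1.60 ± 0.44. Hba-a1 had 80625 to 237695 (median 136082) in the NAC libraries, against 231300.0 to 635869 (median 388578) in the saline libraries. One NAC library, NAC MI 3, lay above the lowest saline library for Hba-a1, and its log2 change was -1.53 ± 0.42. Hba-a2, a near-identical alpha globin copy, stood at -0.46 ± 0.38, with 0.75 within R207, 0.44 within R230 and -0.62 within R235. The counting may split reads between such copies, so the single globin genes are uncertain. Alas2, the first enzyme of heme synthesis in red cells, had 4917 to 16163 (median 6951) in the NAC libraries, against 10444 to 25360.2 (median 17905) in the saline libraries, and a log2 change of -1.11 ± 0.32, with -0.056 within R207, 0.07 within R230 and -1.87 within R235.

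Across the red cell list, 32 of 37 genes had a negative log2 change, against 7864 of 14996 over all genes. At an unadjusted p under 0.05, 13 were on the lower side and 0 on the higher side (7.9% and 7.62% over all genes). None of the list passed with limma, and DESeq2 called 7 lower. The median was -0.57, with 0.12 within R207, -0.062 within R230 and -1.23 within R235, so that the median was positive under R207. Isg20, an exonuclease on the list, stood at -1.29 ± 0.31. All globin genes together made up 1.07%, 2.68% and 1.2% of the values of the NAC sham libraries, and 3.74%, 3.71% and 6.54% of the saline sham libraries. After MI they made up 2.23%, 1.42% and 2.78% in the NAC libraries, and 4.24%, 4.69% and 7.05% in the saline libraries. The NAC share was below the saline share in every pair of libraries, with means of 1.90 ± 0.762% in the NAC libraries and 4.99 ± 1.45% in the saline libraries (SD, n = 6 each). The NAC minus saline difference averaged over surgeries was -3.10 percentage points (two-sided exact permutation test within surgeries, p = 0.005, the smallest its 400 relabellings can give). It was -1.04 points within R207, -1.69 within R230 and -5.22 within R235. The globin share was chosen with earlier results of these data known, and Hbb-bt was among the leading genes of these same libraries. Its p-value is therefore not independent support, and the relabelling took no account of the title prefix. Transcripts of the mitochondrial genome made up 22.5 ± 5.15% of the values in the NAC libraries and 21.7 ± 9.0% in the saline libraries (SD, n = 6 each; difference 0.781 points, exact permutation p = 0.825).

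**Figure D3:**
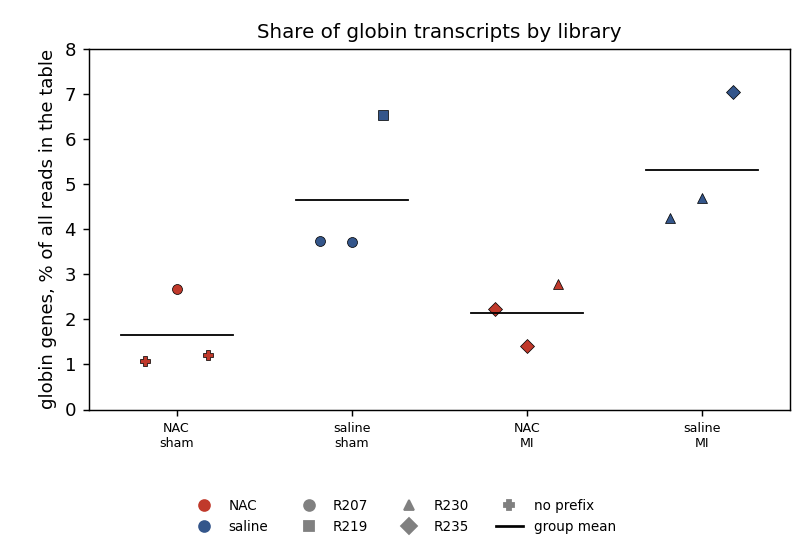
Share of all globin genes in the summed values of each library, in percent, by treatment and surgery; marker shapes give the title prefix and bars the group means. The 6 NAC libraries (red) lie between 1.07% and 2.78% and the 6 saline libraries (blue) between 3.71% and 7.05%.

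The other genes on the lower side had varied roles and changes of smaller size. Of the 15 genes with the smallest p there, none of which passed, 14 besides Hbb-bt had log2 changes between -0.73 and -0.54, whereas the 15 on the higher side had 0.89 to 1.95. Phlda3, a p53 target that restrains AKT signalling, had 452 to 743 (median 632) in the NAC libraries, against 716 to 1230.5 (median 937) in the saline libraries, and a log2 change of -0.61 ± 0.12 (SE; limma adjusted p = 0.168), with -0.72 within R207, -0.78 within R230 and -0.46 within R235. Its ranges overlapped across surgeries, but within each surgery every NAC library lay below every saline library. Znrf1, a ubiquitin ligase, had 628 to 972 (median 892) in the NAC libraries, against 1167 to 1637 (median 1309) in the saline libraries, without overlap, and a log2 change of -0.67 ± 0.13. Nhp2, a protein of the particles that modify ribosomal RNA, had a log2 change of -0.73 ± 0.14, with -0.80 within R207, -0.96 within R230 and -0.39 within R235. Ddah2, of a family that breaks down methylated arginines, stood at -0.70 ± 0.14, Map3k11, a kinase upstream of JNK, at -0.65 ± 0.13 and Oaz2, an antizyme that limits polyamine synthesis, at -0.69 ± 0.15. These 3 genes had all 6 NAC libraries below all 6 saline libraries, against 59 of all genes (0.393%). Like the rest of the 15, they were picked for a small p in these same libraries. Tle3, a transcriptional corepressor, stood at -0.54 ± 0.12 and Mxd4, which opposes MYC at its target genes, at -0.61 ± 0.14, both without overlap. Col18a1 and Col26a1 are collagens; Col18a1 had 3532 to 7139.8 (median 5098) in the NAC libraries, against 6738 to 9359 (median 8168) in the saline libraries. The log2 changes were -0.67 ± 0.15 for Col18a1 and -0.69 ± 0.16 for Col26a1. The others were Csnk1g2, a casein kinase, at -0.56, Shkbp1 at -0.65, N4bp3 at -0.63 and Fam214b at -0.61. All 15 were negative within R207, R230 and R235, which is fixed in advance for those whose libraries did not overlap. DESeq2 and limma with quality weights, run on the same libraries that picked these genes, called all 15.

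Ribosomal protein genes lay together on the lower side. Of 46 measured, 45 had a negative log2 change, against 7864 of 14996 over all genes. At an unadjusted p under 0.05, 21 were on the lower side, against 7.9% of all genes. None of the 46 passed with limma and DESeq2 called 6. The median was -0.43, with -0.18 within R207, -0.17 within R230 and -0.15 within R235. Leaving out saline sham 3, the median was -0.22. Rplp2, of the ribosomal stalk, had 3679, 3459 and 3408 in the NAC sham libraries and 4958, 3609.9 and 8624 in the saline sham libraries, and 5169.9, 4801 and 5022 in the NAC MI libraries and 10372, 7985 and 7525 in the saline MI libraries. Saline sham 3 was the highest of the sham libraries, and the log2 change was -0.69 ± 0.19. Rps19, of the small subunit, stood at -0.73 ± 0.20. Many ribosomal protein genes have processed pseudogenes, between which the counting may split reads.

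Immediate early genes, which cells switch on within minutes of stimulation or of dissociation from tissue, were lower in most NAC libraries. Of 26 measured, 24 had a negative log2 change, against 7864 of 14996 over all genes. Of the 26, 10 had an unadjusted p under 0.05 on the lower side and 0 on the higher side (7.9% and 7.62% over all genes). None passed with limma and DESeq2 called 1, and the median was -0.73. Junb, an AP-1 subunit, had 865, 7181 and 1078 in the NAC sham libraries and 6933, 5433 and 8374 in the saline sham libraries, and 2387, 989 and 2579 in the NAC MI libraries and 9294, 6762 and 2474 in the saline MI libraries. NAC sham 2 was as high as the saline sham libraries, and saline MI 3 as low as NAC MI 1 and NAC MI 3. The log2 change of Junb was -1.7 ± 0.49, with 0.23 within R207, -1.62 within R230 and -0.69 within R235. Klf2, a flow-responsive endothelial factor also induced early, stood at -0.98 ± 0.27. The list's median was 0.46 within R207, -0.36 within R230 and -0.21 within R235 and -1.15 without NAC sham 2, and the summed level of NAC sham 2 (103128) was above that of every saline library (27262 to 81502). The part that differences between isolations have in these values was not tested.

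No marker of another cell type passed with limma; DESeq2 called 4 atrial and conduction genes and 3 epicardial genes higher, and 0 endothelial, lymphocyte and mast cell genes. The pools' cell content and the RNA per cell cannot be told apart here either. Over all genes, 7864 of 14996 were negative, and 7.62% had an unadjusted p under 0.05 on the higher side and 7.9% on the lower side. Endothelial genes had a negative log2 change for 17 of 18, 7 with an unadjusted p under 0.05 on the lower side, and a median of -0.41, with 0.28 within R207, 0.16 within R230 and -0.54 within R235. Esam, an endothelial adhesion molecule, stood at -0.69 ± 0.22 and Egfl7, a secreted endothelial factor, at -0.75 ± 0.24, each with overlapping libraries. The endothelial median was -0.17 without NAC MI 2 and -0.046 without NAC MI 1 and NAC MI 2. Lymphocyte and mast cell genes had a median of -0.98 over 11 genes, 4 of them with an unadjusted p under 0.05 on the lower side, and 0.19 within R207, -0.073 within R230 and -1.40 within R235; it was -0.62 without NAC MI 2. Cd79b, of the B cell receptor, had 22.5, 0 and 32.8 in the NAC MI libraries and 99.8, 52.0 and 67.2 in the saline MI libraries. Epicardial genes had a median of 0.66, with 5 of 14 at an unadjusted p under 0.05 on the higher side. Their summed level was 25636 in NAC MI 2 and 3160.2 to 6930.2 in the other 11 libraries, and their median was 0.19 without NAC MI 2 and 0.36 without NAC sham 3. Tbx18, a transcription factor of the epicardium, had 326 to 658 (median 394) in the NAC libraries, against 177 to 361 (median 244) in the saline libraries, and a log2 change of 0.78 ± 0.21. Atrial and conduction genes had a median of 0.88 over 12 genes, 4 of them with an unadjusted p under 0.05 on the higher side, and 0.29 within R207, -0.071 within R230 and 1.06 within R235; it was 0.52 without NAC sham 3. Bmp10, a growth factor made in atrial and trabecular cardiomyocytes, had 115, 70.1 and 48.1 in the NAC sham libraries and 2.90, 11.9 and 10.7 in the saline sham libraries, and 492, 32.8 and 30.5 in the NAC MI libraries and 1.12, 9.66 and 33.1 in the saline MI libraries. Its log2 change was 3.14 ± 0.77, the highest NAC value was that of NAC MI 1, and saline MI 3 lay above 2 NAC libraries. Hcn4, the pacemaker channel, stood at 0.99 ± 0.35, with 0.61 within R207, -0.14 within R230 and 1.01 within R235.

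**Figure D4:**
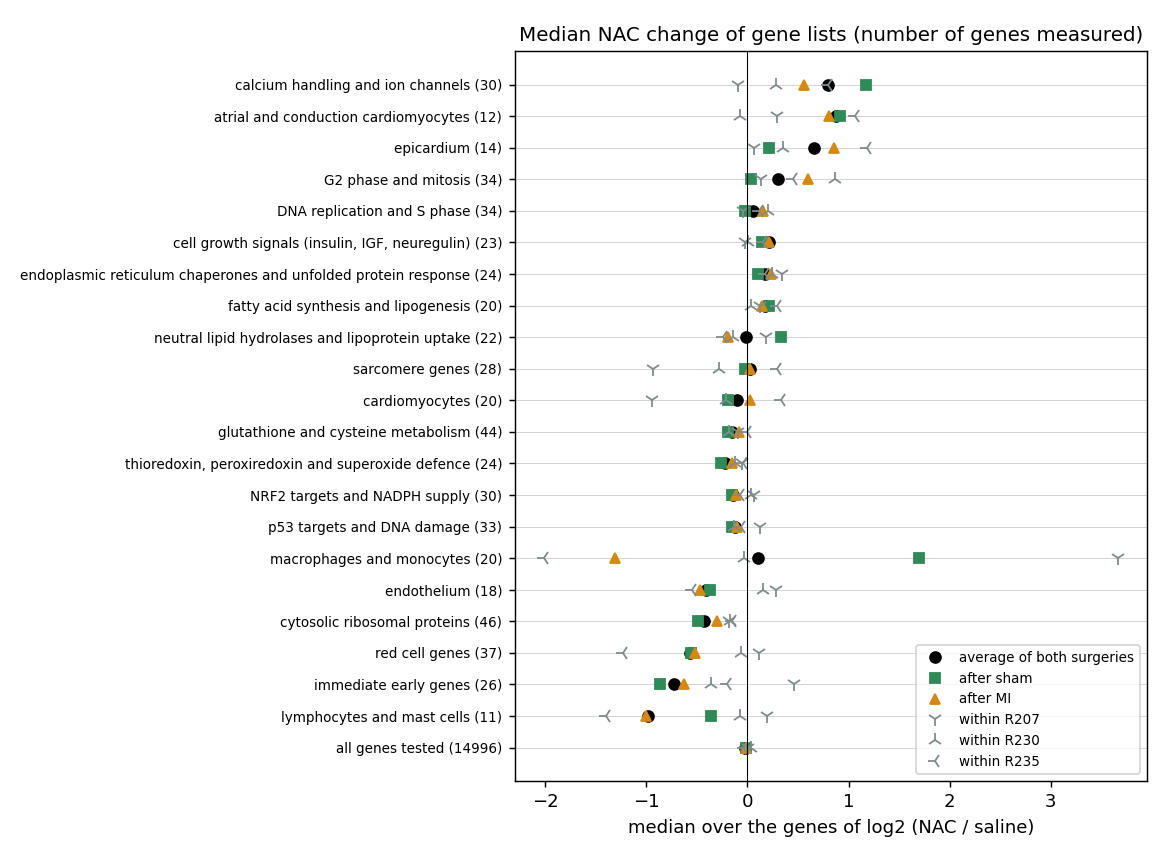
Median log2 NAC-to-saline change over the measured genes of 21 lists and of all genes tested, for the average of both surgeries (black circles), after sham (green squares), after MI (orange triangles) and within each of 3 title prefixes (grey). Calcium handling genes have a median of 0.80 and immediate early genes of -0.73, while all genes have -0.021; macrophage genes lie at 1.7 after sham and -1.31 after MI.

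Cardiomyocyte identity genes had no common direction, since 8 of 20 had a positive log2 change. At an unadjusted p under 0.05, 5 were on the higher side and 0 on the lower side, against 7.62% and 7.9% of all genes. None of them passed with limma, and DESeq2 called 4 higher and 0 lower. The median was -0.10, with -0.95 within R207, -0.21 within R230 and 0.33 within R235. Leaving out 1 library, it ran from -0.23 (without NAC sham 1) to 0.17 (without NAC sham 2). Their summed level was 284189 to 794132 in the NAC libraries and 426604 to 779001 in the saline libraries, NAC sham 2 being the lowest. Ttn, the giant spring protein of the sarcomere, had 14709 to 44751 (median 25124) in the NAC libraries, against 3726 to 17318 (median 6944) in the saline libraries, and a log2 change of 1.78 ± 0.39, with 0.065 within R207, 1.76 within R230 and 1.66 within R235. Sarcomere genes had a median of 0.024, with 5 of 28 at an unadjusted p under 0.05 on the higher side and 2 on the lower side, and the median ran from -0.12 (without NAC sham 1) to 0.20 (without NAC sham 2) leaving out 1 library. Myh6 stood at 0.38 ± 0.37 and Myh7, the fetal myosin heavy chain, at 0.96 ± 0.38. Myh7 had 19098, 3363 and 18265 in the NAC sham libraries and 5264, 3619 and 2503 in the saline sham libraries, so that only the 2 NAC libraries without a prefix lay above the saline range there. Nppa and Nppb code for natriuretic peptides released by strained heart muscle. Nppa had 70.1 to 1789.9 (median 376) in the NAC libraries, against 37.7 to 537 (median 189.7) in the saline libraries and Nppb had 897 to 7871 (median 1867) in the NAC libraries, against 536 to 4020.1 (median 1035) in the saline libraries. Their log2 changes were 1.19 ± 0.46 for Nppa and 0.78 ± 0.31 for Nppb, with 0.68 within R207, -0.46 within R230 and 2.06 within R235 for Nppa; both had a limma adjusted p of 0.269 or more.

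Genes of the antioxidant systems that NAC feeds into showed no change that passed with limma, while DESeq2 called Glrx5 (adjusted p = 0.0241) and Gpx1 (adjusted p = 0.0271) lower. Of 44 genes of glutathione and cysteine metabolism, 15 had a positive log2 change, 1 had an unadjusted p under 0.05 on the higher side and 6 on the lower side (background 7.62% and 7.9%), and the median was -0.16, with -0.094 within R207, -0.18 within R230 and -0.0049 within R235. Limma with quality weights called 1 gene of this list higher and 4 lower, against 1047 higher and 974 lower of all 14996 genes. The list's median was -0.046 without saline sham 3 and -0.051 with the length trend removed. The smallest p-values belonged to Glrx5, a mitochondrial glutaredoxin for iron-sulfur clusters, Gpx1, a glutathione peroxidase abundant in red cells, and Mpst, a cysteine-derived sulfurtransferase. Glrx5 had 722 to 1375 (median 1198) in the NAC libraries, against 1104 to 2155 (median 1854) in the saline libraries, and a log2 change of -0.64 ± 0.17, with -0.78 within R207, -0.61 within R230 and -0.41 within R235. Gpx1 had 3225 to 7189 (median 5342) in the NAC libraries, against 4489.8 to 13852 (median 8582) in the saline libraries, and a log2 change of -0.87 ± 0.26, with -0.031 within R207, -0.25 within R230 and -1.27 within R235. Its highest library was saline sham 3, which also had 62721 Hbb-bt; the part of red cells in Gpx1 was not tested. Mpst stood at -0.62 ± 0.19. Gclc, the catalytic subunit of the rate-limiting enzyme of glutathione synthesis, had 279 to 598 (median 383) in the NAC libraries, against 328 to 473 (median 373) in the saline libraries, and a log2 change of 0.017 ± 0.20. Slc7a11, the cystine importer, had 12.5 to 78.8 (median 31.98) in the NAC libraries, against 2.17 to 55.7 (median 28.0) in the saline libraries, and a log2 change of 0.61 ± 0.51, with 2.68 within R207, 0.10 within R230 and -0.0028 within R235.

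Targets of NRF2, the transcription factor that answers oxidative and electrophilic stress, had a median of -0.14 over 30 genes, 0 with an unadjusted p under 0.05 on the higher side and 3 on the lower side; the median was -0.064 without saline sham 3. Nqo1, a quinone reductase and classical NRF2 target, had 86.7 to 189 (median 164) in the NAC libraries, against 105 to 299.9 (median 190.1) in the saline libraries, and a log2 change of -0.32 ± 0.28. Hmox1, the heme oxygenase, had 234, 1798 and 136 in the NAC sham libraries and 294, 237 and 378 in the saline sham libraries, and 1175, 209.7 and 806 in the NAC MI libraries and 1187, 983 and 1338 in the saline MI libraries. The high sham value was that of NAC sham 2 and the low MI value that of NAC MI 2, the same libraries that stood apart in macrophage genes, and the log2 change of Hmox1 was -0.31 ± 0.55. Sqstm1, an autophagy receptor, stood at -0.32 ± 0.12 and Keap1, the sensor that holds NRF2 in check, at -0.27 ± 0.11. The thioredoxin, peroxiredoxin and superoxide list had 21 of 24 genes with a negative log2 change, 1 of them with an unadjusted p under 0.05, and a median of -0.22, which was -0.062 without saline sham 3 and -0.11 without NAC sham 2. Txn2, the mitochondrial thioredoxin, stood at -0.39 ± 0.17, Txnrd1, the cytosolic thioredoxin reductase, at 0.0057 ± 0.13 and Sod2, the mitochondrial superoxide dismutase, at -0.24 ± 0.18. For Txnrd1 the 95% interval of the log2 change ran from -0.28 to 0.29, for Gclc from -0.41 to 0.45 and for Nqo1 from -0.93 to 0.29. Mt1, a metallothionein, had 735 to 1752 (median 1313) in the NAC libraries, against 752 to 2079.9 (median 1560.2) in the saline libraries, and a log2 change of -0.25 ± 0.19; Mt2 was listed at 0 or near 0 in all 12 libraries and was not tested. Tfrc, the transferrin receptor that brings iron into cells, had 983 to 3565 (median 2427) in the NAC libraries, against 554 to 1207 (median 724) in the saline libraries, and a log2 change of 1.47 ± 0.33, with 0.66 within R207, 0.64 within R230 and 1.03 within R235.

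Genes for chaperones of the endoplasmic reticulum had mostly small positive log2 changes, none of which passed with limma. Of 24 genes of this list, 21 had a positive log2 change, 6 had an unadjusted p under 0.05 on the higher side and 0 on the lower side, and the median was 0.17, with 0.34 within R207, 0.24 within R230 and 0.17 within R235. It was 0.10 without NAC MI 2 and 0.04 without NAC sham 2 and NAC MI 2; DESeq2 called 2 genes of the list higher. Hsp90b1, the reticulum's HSP90, had 4106, 4575 and 4442 in the NAC sham libraries and 2407, 3102 and 2286 in the saline sham libraries, and 3908, 6659 and 4219.9 in the NAC MI libraries and 2746, 2081 and 3520.0 in the saline MI libraries. It did not overlap between treatments, its log2 change was 0.79 ± 0.17, and it was 0.74 within R207, 0.82 within R230 and 0.54 within R235. Canx, the chaperone calnexin, had 4235 to 6164 (median 4756) in the NAC libraries, against 2469 to 4076 (median 3116) in the saline libraries, without overlap, and a log2 change of 0.57 ± 0.15.

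Several genes of the growth and lipid lists lay higher in most NAC libraries, though none passed with limma. Erbb4, the cardiomyocyte receptor for neuregulin, had 419, 101 and 436 in the NAC sham libraries and 66.0, 88.3 and 29.8 in the saline sham libraries, and 204, 296 and 116 in the NAC MI libraries and 41.5, 50.5 and 109 in the saline MI libraries. Only NAC sham 2 lay below any saline library, and the log2 change was 1.92 ± 0.42, with 0.40 within R207, 1.33 within R230 and 1.16 within R235. Igf1, the insulin-like growth factor, stood at 0.65 ± 0.19. Of the 23 growth-signal genes, 5 had an unadjusted p under 0.05 on the higher side and 3 on the lower side. DESeq2 called 2 of the 23 higher and 2 lower. The list's median was 0.21, and it was 0.11 without saline sham 3 and 0.13 without NAC MI 2. Lpl, the lipoprotein lipase that frees fatty acids from circulating fat, had 7752 to 16155 (median 10401) in the NAC libraries, against 4530.4 to 9593 (median 4895) in the saline libraries, and a log2 change of 0.94 ± 0.23. Vldlr, a receptor for triglyceride-rich lipoproteins, stood at 1.45 ± 0.32, with 0.41 within R207, 0.67 within R230 and 1.0 within R235. Gpam, the acyltransferase that starts triglyceride synthesis, had 786 to 2109.9 (median 1246) in the NAC libraries, against 517 to 762 (median 606) in the saline libraries, without overlap, and a log2 change of 1.04 ± 0.22. Cpt1a, which admits fatty acids to mitochondria, had 1872 to 2184 (median 2127) in the NAC libraries, against 1402 to 1755 (median 1471) in the saline libraries, without overlap, and a log2 change of 0.44 ± 0.11. Ucp2, a mitochondrial carrier, lay on the other side, at 3911 to 5472 (median 4587) in the NAC libraries, against 5515 to 7659 (median 6435) in the saline libraries, also without overlap, and a log2 change of -0.47 ± 0.14. Slc16a1, the main lactate transporter, did not overlap either and stood at 1.19 ± 0.27. Of 22 genes of neutral lipid hydrolases and lipoprotein uptake, 11 were positive and 11 negative. At an unadjusted p under 0.05, 5 of these were on the higher side and 3 on the lower side. Such counts were 5 and 1 of 20 for fatty acid synthesis and 3 and 1 of 38 for fatty acid oxidation. The lists as wholes had medians of -0.0097 (neutral lipid hydrolases and lipoprotein uptake), 0.17 (fatty acid synthesis) and 0.016 (fatty acid oxidation), and leaving out 1 library these ran from -0.10 (without saline sham 1) to 0.076 (without NAC sham 1), 0.052 (without NAC MI 2) to 0.29 (without NAC MI 3) and -0.12 (without saline sham 2) to 0.13 (without NAC sham 2). Pnpla7, a lysophospholipase, had 180.1, 143 and 204 in the NAC sham libraries and 58.7, 60.5 and 65.5 in the saline sham libraries. After MI it had 196, 130.1 and 201.3 in the NAC libraries and 174, 165 and 218 in the saline libraries, which overlapped. The NAC change after MI minus that after sham was -1.58 (limma adjusted p = 1.0, unadjusted p = 0.00062), which did not pass, and the average was 0.69.

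Among cell death genes, Bbc3, which codes for the p53-induced killer protein PUMA, had 109.9, 98.1 and 128 in the NAC sham libraries and 164, 149.8 and 188 in the saline sham libraries, and 145, 66.9 and 55.4 in the NAC MI libraries and 254, 183 and 197 in the saline MI libraries. All 6 NAC libraries lay below all 6 saline libraries, and the log2 change was -0.96 ± 0.23 (SE; limma adjusted p = 0.178), with -0.67 within R207, -1.94 within R230 and -0.99 within R235. The list of p53 targets as a whole was split, with 4 of 33 at an unadjusted p under 0.05 on the higher side and 5 on the lower side and a median of -0.13, which was -0.066 without NAC MI 2 and -0.083 without saline MI 1. BCL2 family and cell death genes had 0 of 23 on the higher side and 5 on the lower side, with a median of -0.18, which was -0.34 without NAC sham 2.

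The averaged change moved with gene length. Protein-coding genes with under 1 kb of exon had a median log2 change of -0.32 (51 of 252 higher in NAC), those of 1 to 2 kb -0.24, 2 to 4 kb -0.11, 4 to 8 kb 0.015, 8 to 16 kb 0.17 and 16 kb or more 0.34 (255 of 292 higher). The trend had the same direction under each prefix: between the shortest and the longest class the median was -0.25 and 0.15 within R207, -0.46 and 0.37 within R230 and -0.12 and 0.072 within R235. Without saline sham 3 it was -0.15 and 0.19. Relative to each gene's mean over the 12 libraries, the median of genes of 8 kb or more minus that of genes under 1 kb was 0.36 to 0.91 in the NAC sham libraries, and 0.31, 0.78 and -0.96 in the saline sham libraries, the last being saline sham 3. After MI it was -0.15 to -0.025 in the NAC libraries and -0.85 to -0.15 in the saline libraries. Globins and ribosomal proteins are short, and Ttn, Ryr2 and many channel genes are long. With each library's length trend removed, the median was -0.27 for ribosomal protein genes, 0.73 for calcium handling genes, 0.31 for mitosis genes and -0.51 for red cell genes, against -0.43, 0.80, 0.30 and -0.57 with it, and limma called 0 genes. With the length trend removed, the log2 change was 0.97 for Ttn, 0.82 for Ryr2 and 1.28 for Slc8a1, each below its averaged value above. The median of the thioredoxin list was then -0.11, against -0.22, and that of the growth-signal list 0.081, against 0.21. Whether RNA integrity or library preparation differed between libraries is not given in the sources used here and was not tested.

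**Figure D5:**
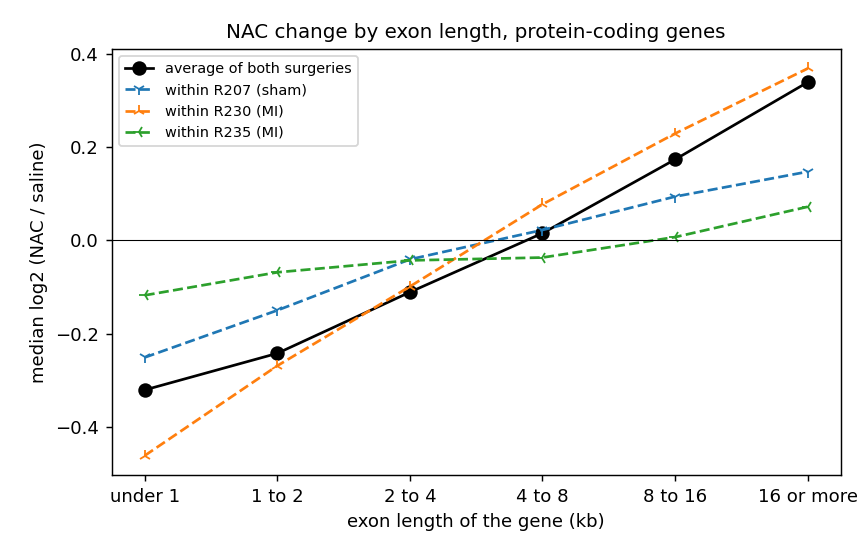
Median log2 NAC-to-saline change of protein-coding genes in 6 classes of exon length in kb, for the average of both surgeries (black) and within each title prefix that holds both treatments (dashed). The averaged median is -0.32 in genes under 1 kb and 0.34 in genes of 16 kb or more.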

How the data were processed

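RNA-seq of 12 pooled cardiomyocyte isolations was deposited by the authors as 1 table of normalized values per gene (a signal on a linear scale). Per the submitters' processing notes, the tools named are STAR 2.7.10a and DESeq2 1.44.0 and the build is mm10; the gene counter, annotation release and strandedness are not given in the sources used here. The authors' values are whole reads divided by size factors: 100% of values came out whole within 0.01, and the factors equalled recomputed medians of ratios. Reads per library were 14353842 to 25118341. Of 52336 genes, 52079 matched GENCODE on GRCm38, 21590 had no reads and 14996 had a mean of at least 10. Levels are not per length unless stated.

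The test was limma 3.58.1 (R 4.3.3) on log2(value + 1) with 4 groups, a trended prior and Benjamini-Hochberg adjustment at 0.05; a fold change on this scale understates low genes. edgeR 4.0.16 and DESeq2 1.42.0 were run on recovered reads. The fit was tested on simulated data. The comparison, gene lists (50) and tests were chosen with earlier results of these data known. The rule for named genes was the 15 smallest p each way among genes averaging 50 or more in 1 treatment and no clone or pseudogene name, the 3 smallest p per list and a fixed set; Xist, Uty and genes called only by alternatives were chosen after their values were seen. Values are given for a part of the genes it named. Alternatives were pseudocounts of 0.5 and 5, filters, scalings, weights, a title prefix block and leaving out libraries. Replicate numbers follow accession order and pair nothing.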

Additional observations from a re-analysis of the deposited data

Results flagged for a closer look

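The search covered 176 groups of 6 libraries (88 results in 2 treatments). In 13 of them, the gap of 1 library to the next, divided by the group's range, passed the 95% limit of 0.625. Chance alone flags about 1 in 20 where the 6 values come from 1 normal distribution. Each group here held linear values of sham and MI libraries together, so that rate may not hold. All 13 flagged values were the highest of their group. Saline MI 3 was far above the other saline libraries for Chrm2 (255, ratio 0.667), Pcdhga2 (73.1, 0.706), Vldlr (872, 0.643) and Bmp10 (33.1, 0.663). Saline sham 3 was far above them for Mxd4 (2956, 0.666) and Mpst (653, 0.724). NAC MI 2 was far above the other NAC libraries for Hsp90b1 (6659, ratio 0.757), Tbx18 (658, 0.656), Canx (6164, 0.666) and Nppb (7871, 0.646). NAC sham 2 was far above them for Bub1 (741, ratio 0.711) and Junb (7181, 0.729), and NAC MI 1 for Bmp10 (492, ratio 0.818).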

How the results depend on the processing

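All 30 leading genes, 15 each way, kept their direction in all 28 other fits run. They were picked for a small p in the same libraries that these fits reuse, so this is not independent support. The number of them past an adjusted p of 0.05 was 30 with DESeq2 and with quality weights, 25 without NAC sham 2, 5 without NAC MI 3, 1 without saline sham 2, 15 without NAC sham 2 and NAC MI 2, 20 without these and saline sham 3, and 0 in the other fits. For the averaged change the number of all genes called was 0 with other pseudocounts, filters and scalings, edgeR, a robust prior, an additive model, the length trend removed and without NAC MI 1 and NAC MI 2 (the last 2 chosen after seeing the data). It was 437 with DESeq2, 2021 with quality weights, 6 with the title prefix as a block (Saa3, Irf7, Ccl7, Oasl2 and H2-K1 higher, Prss36 lower), 167 without NAC sham 2 and NAC MI 2, and 328 without these and saline sham 3. Leaving out 1 library gave 0 to 250 genes: 250 without NAC sham 2, 9 without NAC MI 3 and 4 without saline sham 2 (Nceh1 and the pseudogenes Gm1821, Gm10076 and Rps2-ps10). For the difference between surgeries it was 1 with DESeq2 (Gm21188), 17 with the prefix block, 6 without those 3 libraries, 0 to 4 leaving out 1 library (the 4 Y-linked genes without NAC MI 3), and 0 otherwise. The cause of these differences was not tested. In the block fit the sham change rests on NAC sham 2, the library high in macrophage genes, against saline sham 1 and saline sham 2. Prefix R219 and the libraries without a prefix hold a single treatment each and drop out of that change.

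Of 86 named genes, part of them picked by p in these same libraries, 76 had the same sign in every fit. The log2 change of Hmox1 was 0.30 with edgeR, 0.29 with DESeq2 and 0.92 with the prefix block, where Hba-a2 was 0.33, Cdkn1a 0.059, Myh7 -0.044 and Myh6 -0.30. Gclc was -0.025 with quality weights and -0.00021 without the 3 libraries, where Nqo1 was 0.044 and Txnrd1 -0.11. Txnrd1 was -0.10 with quality weights, -0.089 with the length trend removed and -0.042 without NAC sham 2 and NAC MI 2. Without NAC MI 1 and NAC MI 2, Eif2s3y was 0.32 and Hba-a2 0.11. Leaving out 1 library, the log2 change ran from -0.86 to 0.066 for Hmox1, -0.10 to 0.17 for Gclc, -0.071 to 0.072 for Txnrd1 and -0.056 to 0.066 for Cdk1.
The globin difference was -2.63 to -3.37 points leaving out 1 library (exact permutation p at most 0.01) and -4.10 of the values outside the mitochondrial genome; the mitochondrial difference ran from -1.39 to 3.63 leaving out 1 library. No paired analysis was possible because replicate numbers were given in accession order. The prefix block above does not replace it. Under the block 9 libraries share a prefix with both treatments, while saline sham 3, NAC sham 1 and NAC sham 3 do not inform the NAC change.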

Other observations

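No member of the remaining gene lists passed with limma. Neutrophil genes had a median log2 NAC change of 1.07 after sham and -0.65 after MI, genes of the inflammatory cytokines and chemokines 0.19 after sham and -0.58 after MI, genes for NADPH oxidases and other oxidant producers 0.11 after sham and -0.73 after MI and platelet genes -0.22 after sham and -0.66 after MI; the difference between surgeries was not tested for a list. Neutrophil, cytokine and oxidase genes lay on the same sides as the macrophage genes in which NAC sham 2 and NAC MI 2 stood apart. The averaged neutrophil median was 0.41 both with all libraries and without NAC sham 2. Leaving out 1 library, it ran from 0.15 (without saline sham 1) to 0.70 (without NAC MI 2). Interferon-stimulated genes had a median of 0.24 over 25 genes, with 1.40 within R207, 0.32 within R230 and -0.15 within R235, and -0.067 without NAC sham 2, so that the sign turned.

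Fetal and cardiac stress genes had 5 of 19 at an unadjusted p under 0.05 on the higher side and 1 on the lower side (7.62% and 7.9% over all genes), DESeq2 called 2 higher, and the median was 0.12, running from -0.021 (without NAC MI 2) to 0.21 (without saline sham 1) leaving out 1 library. Hypoxia response genes had 4 of 23 on the higher side and 1 on the lower side with a median of -0.14 (-0.041 without NAC MI 2). Hippo pathway and YAP targets had 4 of 21 on the lower side and 0 on the higher side with a median of -0.062, and DESeq2 called 1 lower. Collagens and basement membrane genes had 4 of 28 on the lower side and 1 on the higher side, and targets of ATF4 4 of 30 on the lower side and 2 on the higher side. Cholesterol synthesis genes, with a median of 0.16, had 3 of 22 on the higher side and 2 on the lower side. Circadian clock genes had 0 of 19 at such a p in either direction.

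Nuclear-encoded respiratory chain subunits had a median of -0.15 over 44 genes, and -0.65 within R207, -0.18 within R230 and 0.30 within R235; leaving out 1 library it ran from -0.28 (without saline sham 2) to 0.057 (without NAC sham 2), so that the sign turned. Transcripts of the mitochondrial genome had 0.12 over 13 genes and -0.14 (without saline sham 1) to 0.47 (without saline sham 3) leaving out 1 library. Glucocorticoid-responsive genes had -0.25 over 20 genes and -0.38 without NAC sham 2. Glycolysis genes had -0.14 and -0.093 without NAC MI 3. Leaving out 1 library, the median passed through 0 for the heme and iron, cell cycle inhibitor, clock, collagen, matricellular, fibroblast, endocardial and adipocyte lists, whose medians were between -0.50 (adipocyte and skeletal muscle markers, 3 genes) and 0.064 (endocardial and lymphatic markers). Metallothionein and zinc genes had 0.12, heat shock chaperones -0.07, mural cell markers -0.14 (-0.055 without NAC MI 2) and Schwann cell and neuron markers 0.35 (0.17 without NAC sham 2). The X- and Y-linked genes had -2.39 over 5; among these, Eif2s3y had 0, 0 and 931 in the NAC MI libraries and 849, 365 and 883 in the saline MI libraries.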
